A study of Mus musculus with 64 samples.

Results

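Clone M is a clonal tumour line from a mouse pancreatic cancer, and its answer to co-cultured fibroblasts was read by RNA-seq. Its libraries were taken by their labels as those of clone M in co-culture and those of clone M in mono-culture, 4 of each, which makes 8 of the 64 libraries of the series. The series holds 8 lines in both cultures with 4 libraries per group: the clones E, H, K, M, N, T and V and the line KPC1. The clones were derived from 1 tumour of an engineered mouse model of pancreatic ductal adenocarcinoma, in which Cre recombinase under the Pdx1 promoter acts in pancreatic epithelium and Trp53 R172H is among the alleles, on a mixed C57BL/6 background. All clones share the alleles of that tumour, and no wild-type group was compared; the genotype of KPC1 is not given in the sources used here. In co-culture the tumour cells grew with fibroblasts for 48 h and were then recovered by their GFP signal on a flow sorter; the labels give neither the source of the fibroblasts nor whether mono-cultures were sorted as well. Clone M is 1 clone, and the labels do not say whether its replicates were separate cultures, so every p-value measures only the spread between these libraries.

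Pancreatic cancer-associated fibroblasts lay down collagen-rich matrix and release cytokines, growth factors and metabolites that reach the tumour cells. Tumour cells can answer through interferon signalling, in which STAT transcription factors switch on antiviral and antigen-presentation genes, and through Wnt, TGF-beta and MAPK signalling, which govern cell identity, matrix and growth. The integrated stress response is a further route: kinases such as GCN2, encoded by Eif2ak4, sense amino acid shortage and raise ATF4, which induces genes of amino acid synthesis such as Asns. The questions put to the data were which genes changed in clone M, and where that response departed from the mean response of the 7 other lines.

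Library totals lay between 15236445 and 16500364 counts in the mono-cultures of clone M and between 12204614 and 13822482 in its co-cultures, within the 11178721 to 21333683 of the whole series, and replicates of clone M correlated at r of 0.987 or more across genes. The ductal genes Krt8, Krt18, Krt19 and Sox9 were abundant in clone M, whereas the adhesion genes Cdh1 and Epcam stayed at or below 1.29 and 0.328 CPM in its mono-cultures; CPM are counts scaled to a library of fixed size, with trimmed mean of M-values factors. The mean co-culture profile of clone M correlated with its own mono-culture at r = 0.976 and with those of the other lines at 0.951 to 0.959 across genes. Kctd15, at 17.6 to 53.4 CPM in the mono-cultures of the other lines, averaged 0.0316 CPM in clone M in mono-culture and 0.056 CPM in co-culture. The leukocyte markers Ptprc and Itgam were at or near 0, and the macrophage marker Cd68 was at 10.6 to 16.8 CPM in mono-culture and 10.7 to 19.5 CPM in co-culture.

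Both sets of libraries carried features that touch the results below. The summed CPM of 6 fibroblast-defining transcripts (Dcn, Lum, Fap, Postn, Thy1 and Col1a2) was at most 0.129 in the mono-cultures of clone M and was 115, 199, 441 and 248 in co-culture replicates 1 to 4. The co-cultures of the other lines held 72 to 539. Fibroblast transcripts in the sorted fraction and transcripts made by the tumour cells cannot be told apart in these bulk libraries, nor can fewer cells of a type and less RNA per cell. Mono-culture replicate 3 stood apart: 7 ribosomal and other noncoding transcripts summed to 37200 CPM, or 3.72% of its reads, against 1161 to 1535 in the other 7 libraries of clone M and 602 to 2597 in the other 56 libraries. The sample descriptions also carry S numbers, which start anew from label number 44 on. By these the libraries fall into 2 label runs, label numbers 1 to 43 and 44 to 64. Replicate 2 of both cultures of clone M lies in the second, and the labels do not say what a run is.

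**Figure D1:**
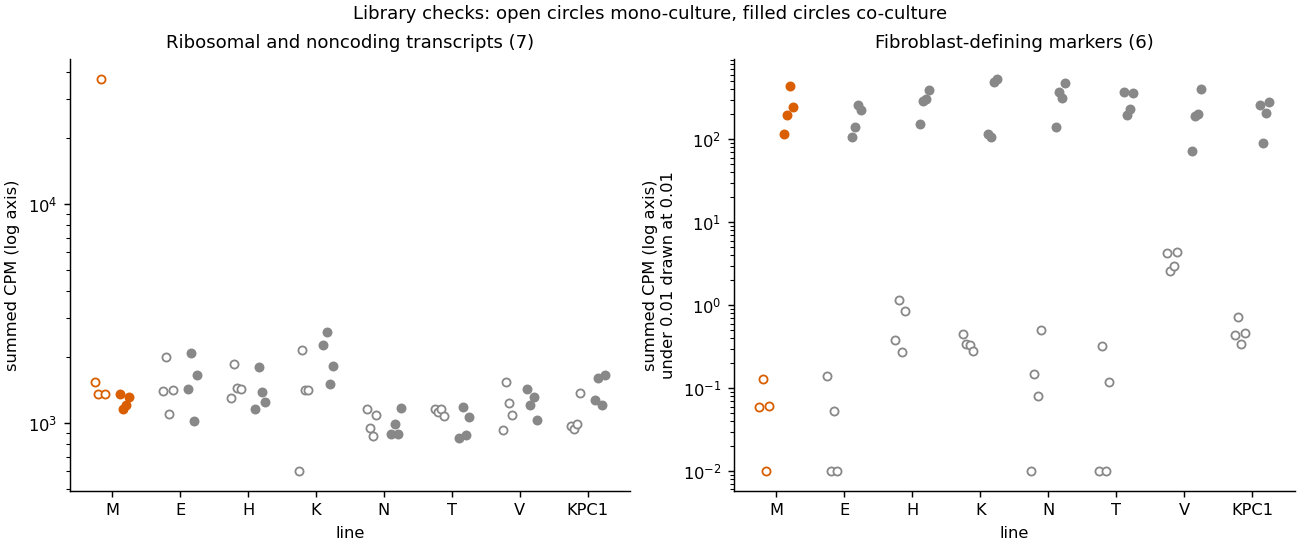
Summed CPM on a log axis for each of the 64 libraries, by line, with mono-culture as open and co-culture as filled circles; clone M is in orange. On the left, mono-culture replicate 3 of clone M is the single library above 2597 CPM for the 7 ribosomal and noncoding transcripts, and on the right the fibroblast-defining transcripts are above 72 CPM in all co-cultures and at most 4.39 CPM in all mono-cultures.

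Co-culture changed 5495 of the 14134 genes tested in clone M, or 38.9% (edgeR quasi-likelihood test, Benjamini-Hochberg adjusted p under 0.1). Of these, 3054 (21.6%) rose and 2441 (17.3%) fell. A change of at least 2-fold was also met by 1514 genes (10.7%), that is 934 rising genes (6.61%) and 580 falling genes (4.1%). The 4 co-culture libraries lay above all 4 mono-culture libraries for 2890 genes (20.4%) and below them for 2533 (17.9%). In the 6 libraries of the first label run alone, 4870 genes were called, 2509 up and 2361 down.

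Of the 934 genes that rose at least 2-fold, 184 were also called up in all 7 other lines, 237 in 5 or 6 of them, 450 in 1 to 4 and 63 in none. Of the 580 genes that fell, 26 were called down in all 7 lines, 103 in 5 or 6, 384 in 1 to 4 and 67 in none. Of the 934 rising genes, 560 (60%) were under 1 CPM in all mono-cultures of clone M. Across all genes tested, the response of clone M correlated with those of E (r = 0.747), T (0.739), N (0.722) and K (0.717) and less with those of KPC1 (0.543), H (0.531) and V (0.477), a description over genes that share the same libraries.

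The response of clone M differed from the mean response of the 7 other lines for 3714 genes (26.3%), of which 2027 (14.3%) were higher and 1687 (11.9%) lower in clone M. Differences of at least 2-fold were called for 839 genes (5.94%), 474 (3.35%) higher and 365 (2.58%) lower. Pair by pair, 1142 genes (8.08%) responded differently in clones M and K and 1497 (10.6%) in M and N. The count was 3124 (22.1%) for E, 4009 (28.4%) for T, 4048 (28.6%) for H, 4355 (30.8%) for KPC1 and 5607 (39.7%) for V. The study placed K, N and T in the same metabolic group as M; with these 3 alone as the other lines 1545 genes differed, although T by itself differed from M for about as many genes as H did. This test weighs clone M against the spread between libraries within lines and not against the spread between lines.

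**Figure D2:**
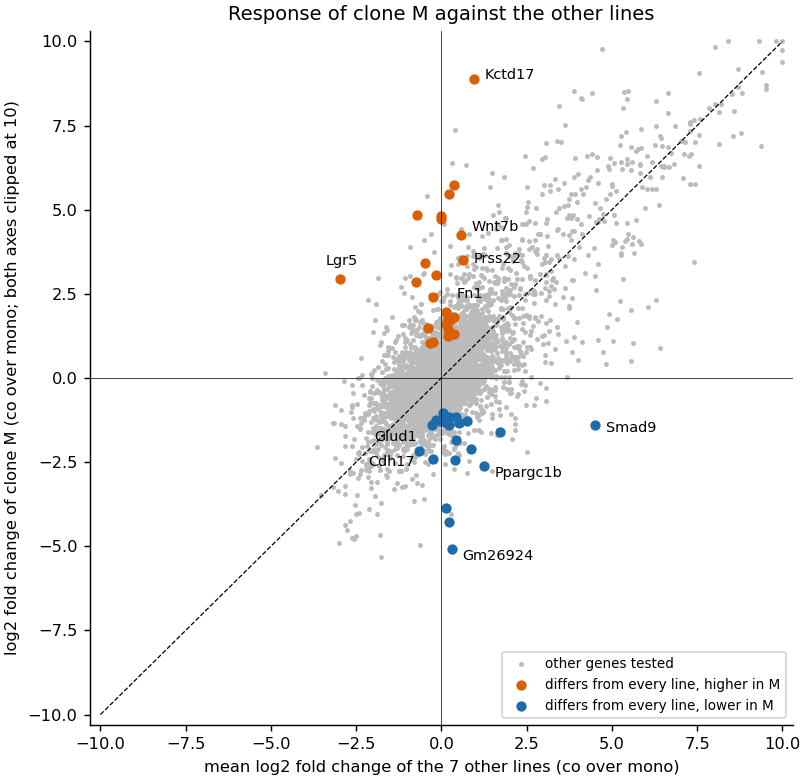
Each point is 1 of the 14134 genes, with the mean log2 fold change of the 7 other lines on the horizontal axis and that of clone M on the vertical axis, both co-culture over mono-culture and clipped at 10. Coloured points are the 24 genes higher and the 22 lower in clone M than in every other line; most of them lie near 0 on the horizontal axis.

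A stricter rule asked for a called change of at least 2-fold in clone M and a called difference in its direction from each of the 7 other lines. It was met by 46 genes (0.325%), 24 of which (0.17%) were higher and 22 (0.156%) lower in clone M. Among them 22 genes (0.156%) were called in their direction in no other line, 8 up (0.0566%) and 14 down (0.0991%). Applied to the other lines, the same rules gave between 4 and 141 genes for the first count and between 0 and 36 for the second, so clone M was not at either end. Leaving clone K out of the other lines raised the counts for clone M to 70 and 40. Across 16 other settings of the analysis 15 of the 46 genes met the rule each time: Celf4, Echdc2, Fn1, Gpr56, Kctd17, Pcdhb17, Pdlim2, Scamp5, Tpgs2 and Wnt7b among the rising genes, and Deptor, Dut, Eda, Glud1 and Ngef among the falling ones.

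6 of the falling genes rest on mono-culture replicate 3. They are Gm26924, Gm26917, Gm23935, Rn7sk, Lars2 and mt-Rnr1. Gm26924, a transcript of ribosomal RNA origin, read 208, 165, 28482 and 182 CPM in mono-culture and 228, 234, 164 and 224 CPM in co-culture. The groups overlap, and only replicate 3 is high. Without that library the rule was met by 49 genes, of which 36 were among the 46, and 16 genes were called in no other line, of which 14 were among the 22. With replicate number as a block none of the 6 met the rule. They are left out of the description that follows.

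Wnt7b, which encodes a secreted Wnt ligand, was among the largest differences. Its mono-culture levels in clone M were 1.82, 2.19, 2.95 and 1.22 CPM, and its co-culture levels were 23.3, 33, 65.3 and 34.9 CPM. All co-culture libraries lay above all mono-culture libraries, by 19.2-fold in the fit (log2 4.26 ± 0.44 SE, edgeR adjusted p = 1.4e-10). In the other lines Wnt7b rose by a mean of 0.56 on the log2 scale (range -0.32 to 1.71), and the difference was 3.70 ± 0.46 (edgeR adjusted p = 7.7e-08). The other lines already held 17.6 to 180 CPM in mono-culture and held 31.1 to 163 CPM in co-culture, so clone M started below all of them and reached their range.

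The same order of levels was seen for other genes that rose in clone M. Prss22, which encodes a tryptase-type serine protease, went from 2.88, 3.15, 5.12 and 2.07 CPM to 21.7, 26.6, 52.5 and 50.2 CPM, without overlap (log2 3.52 ± 0.35 SE, edgeR adjusted p = 4.2e-11). Its difference from the mean of the other lines, which held 12.3 to 83.1 CPM in mono-culture, was 2.90 ± 0.36. Fn1 encodes fibronectin, a matrix glycoprotein that both tumour cells and fibroblasts make. It went from 888, 1041, 1030 and 858 CPM to 2315, 3287, 5550 and 3605 CPM, and the groups were apart (log2 1.95 ± 0.23 SE, edgeR adjusted p = 5.2e-09). In the other lines the mean change of Fn1 was 0.13 on the log2 scale from a mono-culture level of 1110 to 9784 CPM, and the difference was 1.82 ± 0.25. Within the co-cultures of clone M, Wnt7b, Prss22 and Fn1 were lowest in replicate 1 and highest in replicate 3, as were the fibroblast-defining transcripts. That order was shared by 10 of the 24 genes higher than in every line (41.7%), among them Gpr56, Cdkn1a and Ier5l, and by 27.5% of the genes called up in clone M and 10.8% of all genes tested; the part of the fibroblast-defining transcripts in these results was not tested.

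Pdlim2, which encodes a PDZ and LIM domain protein of the actin cytoskeleton, did not follow that order. It was at 27, 33.9, 30.9 and 29 CPM in mono-culture and at 86.8, 96.1, 95.2 and 92.1 CPM in co-culture. The co-culture values were close together and above all mono-culture values (log2 1.62 ± 0.14 SE, edgeR adjusted p = 2.0e-12), and the difference from the other lines was 1.48 ± 0.15. Gpr56, an adhesion G protein-coupled receptor also known as Adgrg1, rose from 18.2, 28.9, 22.1 and 20.4 CPM to 53.1, 83.5, 94.3 and 71.8 CPM, again without overlap, with a difference of 1.55 ± 0.23. Like the fibroblast-defining transcripts, Gpr56 was lowest in co-culture replicate 1 and highest in replicate 3. Kctd17, a potassium channel tetramerisation domain gene, had no read in the 4 mono-cultures and was at 2.41, 1.25, 8.21 and 3.14 CPM in co-culture. Measured against a floor of 3 counts over the mono-cultures, or 0.0467 CPM, it was at least 81.1-fold higher in co-culture, and its log2 difference from the other lines was at least 5.39. The other lines held 0.189 to 13 CPM of Kctd17 in mono-culture.

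**Figure D3:**
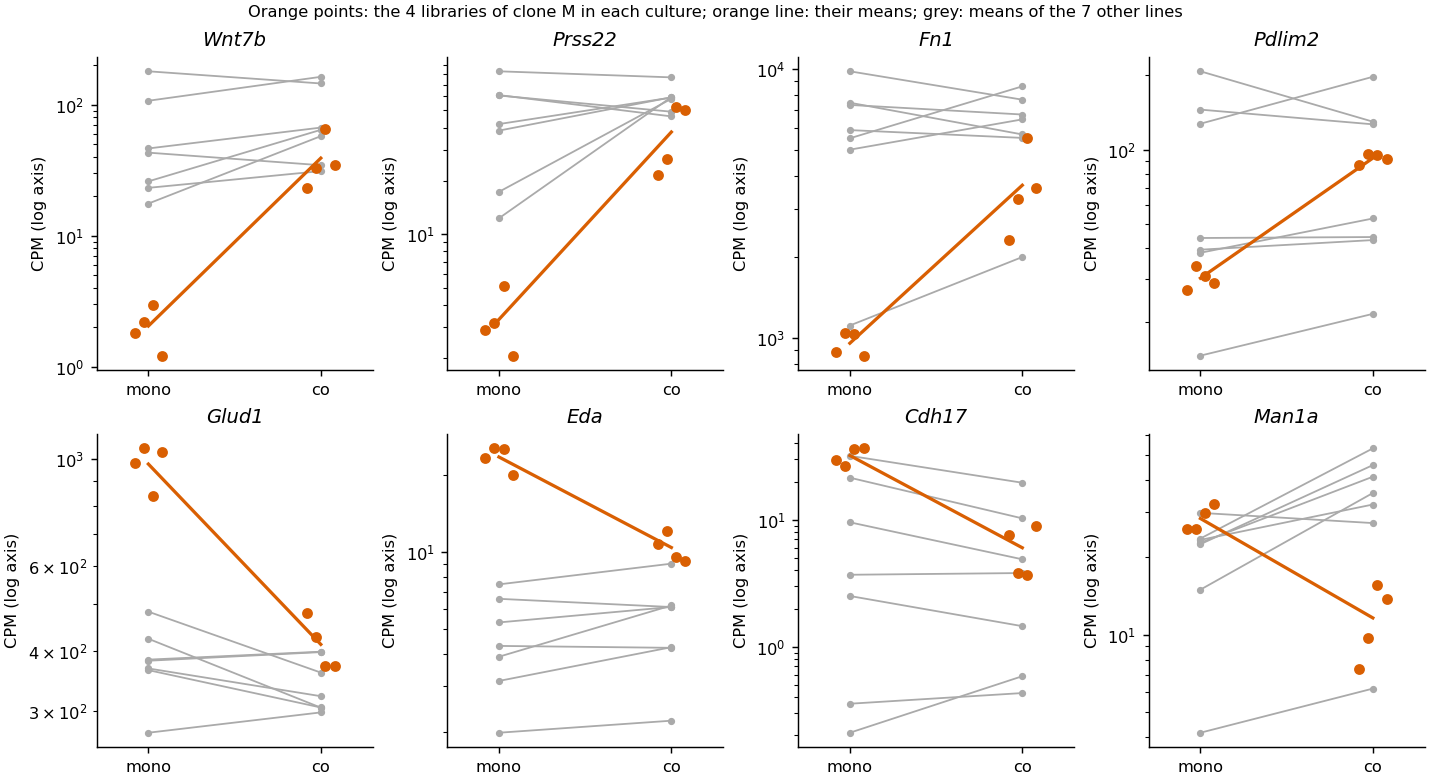
CPM on a log axis in mono-culture and co-culture for 8 genes that differ from every other line; orange points are the 4 libraries of clone M in each culture, the orange line joins their means, and grey lines join the means of the 7 other lines. For Wnt7b and Prss22 clone M starts below the other lines, for Glud1 and Eda it starts above them, and in each case the co-culture libraries move toward the range of the others.

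The position of clone M in mono-culture belongs beside these differences, since the mono-culture level enters both. Of the 24 genes higher than in every other line, clone M was the lowest of the 8 lines in mono-culture for 21 (87.5%, against 14.2% of all genes tested) and the lowest in co-culture for 8 (33.3%, against 13.4%). Of the 16 lower genes that are left without the 6 that rest on mono-culture replicate 3, it was the highest in mono-culture for 8 (50%, against 15.1%) and the highest in co-culture for 4 (25%, against 14.4%).

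Genes called up in clone M and in no other line included Sorbs3, which encodes the actin and vinculin adaptor vinexin. It was at 5.24, 5.40, 4.27 and 6.2 CPM in mono-culture and at 12.8, 16.7, 16.6 and 13.4 CPM in co-culture, without overlap (log2 1.49 ± 0.24 SE, edgeR adjusted p = 3.2e-06). The other lines averaged -0.40 on the log2 scale, and 3 of them were called down. Tpgs2, a subunit of the tubulin polyglutamylase complex, rose from 4.5 to 6.17 CPM to 9.59 to 12.1 CPM (log2 1.08 ± 0.17 SE, edgeR adjusted p = 3.7e-06). Ier5l, an immediate-early response gene relative, rose from 23.6 to 28.3 CPM to 34.7 to 66.6 CPM (log2 1.05 ± 0.18 SE, edgeR adjusted p = 1.1e-05); for both genes the cultures did not overlap and 3 other lines were called down.

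Lgr5, the R-spondin receptor that marks Wnt-responsive stem cells, met the rule at very low levels. It was at 0.177, 0.578, 0.328 and 0.0608 CPM in mono-culture and at 1.45, 3.35, 3.53 and 0.523 CPM in co-culture, where replicate 4 falls within the mono-culture range. The response of clone M was 2.94 ± 0.81 on the log2 scale (edgeR adjusted p = 0.0044), while 6 of the 7 other lines were called down with a mean of -2.98. The difference was 5.92 ± 0.83, the mono-cultures of the other lines held 0.823 to 92.4 CPM, and the gene was named after its values were seen as well as by the rule for the Wnt list.

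The genes that fell in clone M against every other line included Glud1, which encodes glutamate dehydrogenase, the mitochondrial enzyme that turns glutamate into the Krebs cycle intermediate alpha-ketoglutarate. Glud1 was at 981, 1051, 838 and 1033 CPM in mono-culture and at 479, 428, 372 and 373 CPM in co-culture. The cultures were far apart, by 2.36-fold (log2 -1.24 ± 0.11 SE, edgeR adjusted p = 6.0e-12). The mean change in the other lines was -0.16, the difference was -1.09 ± 0.12 (edgeR adjusted p = 6.1e-09), and the other lines held 271 to 483 CPM in mono-culture, below every mono-culture library of clone M.

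Dut, the dUTPase that keeps uracil out of DNA, fell from 182, 204, 180 and 216 CPM to 85.0, 85.4, 63.4 and 79.3 CPM without overlap (log2 -1.32 ± 0.17 SE). Deptor, an inhibitor of the mTOR kinase complexes, fell from between 138 and 177 CPM to between 55 and 77.8 CPM (log2 -1.26 ± 0.17 SE), with a difference of -1.39 ± 0.18. Cdh17, the intestinal-type cadherin also called LI-cadherin, went from 29.5, 26.6, 35.9 and 36.6 CPM to 7.66, 3.81, 3.67 and 8.96 CPM. That is a 5.32-fold fall without overlap (log2 -2.41 ± 0.30 SE), against a mean change of -0.23 in the other lines. Cdh17 was also called down in T, E and N (log2 -1.07, -0.97 and -0.71), from 21.5, 9.56 and 32 CPM in mono-culture. It was called up in V (log2 1.51), from 0.21 CPM. Cbx7, a Polycomb chromobox gene, fell from between 24.1 and 42.8 CPM to between 10 and 12.6 CPM, with a difference of -1.15 ± 0.18.

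Called down in clone M and in no other line were Eda, Man1a and Mndal among the abundant genes. Eda, the TNF-family ligand ectodysplasin, fell from 23.3, 25.3, 25.2 and 19.9 CPM to 10.8, 12.1, 9.58 and 9.26 CPM (log2 -1.17 ± 0.18 SE, edgeR adjusted p = 1.2e-06). Both cultures of clone M stayed above the other lines, which held 1.98 to 7.49 CPM in mono-culture and 2.21 to 9.01 CPM in co-culture. Man1a, a Golgi mannosidase of N-glycan trimming, fell from 25.7, 25.6, 29.7 and 32.1 CPM to 7.38, 9.73, 15.6 and 13.8 CPM (log2 -1.28 ± 0.29 SE, edgeR adjusted p = 0.00048) while 4 other lines were called up. Mndal, an interferon-inducible gene of the HIN-200 family, fell from 61.2, 65.4, 56.9 and 111 CPM to 43.7, 38.8, 23 and 26.5 CPM (log2 -1.16 ± 0.26 SE, edgeR adjusted p = 0.00049) while 3 other lines were called up. Its mono-culture replicate 4 stood apart from the rest. Mndal differed from every line in only 7 of the 16 other settings, against 16 for Eda and 15 for Man1a.

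At lower levels, Ppargc1b, a coactivator of mitochondrial gene expression, fell from 4.89, 3.92, 3.94 and 5.71 CPM to 0.828, 0.389, 1.01 and 0.746 CPM, and 3 other lines were called up. Its difference from their mean was -3.85 ± 0.49. Smad9, which encodes a transducer of BMP signals, was at 1.25 to 1.74 CPM in mono-culture and 0.276 to 0.864 CPM in co-culture (log2 -1.38 ± 0.54 SE, edgeR adjusted p = 0.049), and it was called up in all 7 other lines, whose mono-cultures were at or under 0.171 CPM and in 6 lines held no read. The call of Smad9 in clone M was lost in 4 of the other settings, among them DESeq2 with an adjusted p of 0.117.

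For 33 of the 3054 genes called up and 34 of the 2441 called down in clone M, at any size, at least 5 other lines were called in the opposite direction. Among these genes, 4 were named by the size of the evidence for the difference. Colec12, a scavenger receptor of the collectin family, was at 76.9, 90.2, 89.4 and 92.9 CPM in mono-culture and at 45.6, 52.2, 51.7 and 51.1 CPM in co-culture (log2 -0.80 ± 0.23 SE, edgeR adjusted p = 0.0050), while 5 other lines rose. Of these, N and T rose from means of 0.151 and 0.0415 CPM to 15.8 CPM each. H, V and KPC1 reached 26, 20.4 and 11.5 CPM, so all 5 stayed below clone M in co-culture. Gyk, glycerol kinase, fell from 37.2 to 43.9 CPM to 22.6 to 27.7 CPM (log2 -0.74 ± 0.16 SE), while 6 other lines rose. Krt8, a keratin of simple epithelia, went the other way, from 715, 708, 892 and 555 CPM to 1191, 1147, 1320 and 1173 CPM (log2 0.75 ± 0.18 SE, edgeR adjusted p = 0.0011), while 5 other lines fell. Fam43a rose from 12.8 to 26.5 CPM to 28.4 to 51.5 CPM, while 5 other lines fell. In all 4 genes the cultures of clone M did not overlap.

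Other abundant genes with large differences completed the set. Flnc, the actin crosslinker filamin C, rose from 0.177, 0.578, 0.460 and 0.668 CPM to 7.24, 8.64, 27.5 and 14.0 CPM, and 6 other lines rose too. The mean over all 7 other lines was 1.69 against 4.92 in clone M on the log2 scale. In co-culture the mean of clone M, 14.4 CPM, was above only that of E at 13.6 CPM. Its co-cultures were in the replicate order of the fibroblast-defining transcripts. Cldn2, a pore-forming tight junction claudin, rose from 5.23 to 7.01 CPM to 10.4 to 15.9 CPM while 6 other lines fell, a difference of 2.46 ± 0.43. Gpc4, a cell surface heparan sulphate proteoglycan, rose by 0.76 ± 0.32 in clone M (edgeR adjusted p = 0.059), and its call was lost when any of 5 single libraries was left out. It averaged 6.47 CPM in mono-culture and 11 CPM in co-culture of clone M, against 0, 0.0450 and 0.0187 CPM in the mono-cultures of E, H and N and 3.78, 6.45 and 6.11 CPM in their co-cultures, so these lines rose steeply and stayed below clone M. For 3 genes with a called fall in clone M and a lower response than the mean of the others, some of the other lines fell as well. Pdlim1 fell by 0.97 on the log2 scale in clone M and by 1.51 in E and 0.69 in T, and it rose in H, N, V and KPC1. Il7, a lymphocyte cytokine, fell by 1.77 in clone M and by 1.8 in E and 1.53 in K, and the other 5 lines averaged at most 0.179 CPM in either culture. Mark1, a microtubule affinity kinase, fell by 1.99 in clone M and by 2.61, 2.52 and 1.44 in E, T and N, and it rose in H, V and KPC1 from mono-culture levels of at most 0.475 CPM.

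The counts of gene lists from here on stand beside those of all genes tested, of which 21.6% rose and 17.3% fell in clone M, and 14.3% were higher and 11.9% lower in it than in the other lines. The median response of interferon-stimulated genes was lower in clone M than in any other line. Of 36 members tested, 9 rose (25%) and 3 fell (8.33%) in clone M. The median change was 0.227 on the log2 scale, against 0.0101 over all genes and 0.273 to 2.41 in the 7 other lines. The nearest medians were 0.273 in E, 0.481 in T and 0.489 in N, so a small median rise was not particular to clone M. Against the mean of the other lines 12 members were lower (33.3%) and 3 higher (8.33%) in clone M, with a median difference of -0.56 where that of all genes was 0.022. In the plain levels, clone M was the highest of the 8 lines in mono-culture for 11 of the 36 (30.6%, against 15.1% of all genes tested). In co-culture it was the highest for none (against 14.4%) and the lowest for 8 (22.2%, against 13.4%).

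The promoters of the 3 interferon-stimulated genes named by the rule are shown because each holds the interferon-type element GAAANNGAAA, which was searched on both strands from 250 bases before to 50 bases after the start. The sequences are RefSeq promoter sequence on GRCm38.p6, printed 5′ to 3′ on the strand of the gene, and capitals mark the matches, here all on the opposite strand and so read as TTTCNNTTTC. Overlapping matches are merged.
Ifit3, chr19:34583353-34583436, plus strand: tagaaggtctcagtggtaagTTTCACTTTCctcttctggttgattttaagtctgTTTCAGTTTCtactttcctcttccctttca
Gbp3, chr3:142559979-142560034, plus strand: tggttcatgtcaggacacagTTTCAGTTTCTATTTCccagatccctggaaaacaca
Gbp7, chr3:142530263-142530312, plus strand: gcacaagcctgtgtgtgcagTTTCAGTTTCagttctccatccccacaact
The element was in 15 of the 27 promoters found for the list (55.6%) and in 5 of 15 for MHC class I presentation (33.3%), where 1079 of all 27025 promoters (3.99%) and 363 of the 9781 of genes tested (3.71%) held it. Ifit1 and Isg15, which rose in clone M, held the element too, with 2 and 3 matches. A match of letters is a description and not a site of binding.

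Ifit3, an antiviral protein of the interferon-induced tetratricopeptide family, was at 0.942, 1.29, 0.197 and 1.88 CPM in mono-culture of clone M and at 0.759, 0.545, 3.31 and 1.64 CPM in co-culture. The cultures overlapped, and the change of 0.53 ± 0.65 did not pass the test (edgeR adjusted p = 0.57). All 7 other lines were called up, by 2.63 to 5.55 on the log2 scale, and the difference was -3.47 ± 0.74 (edgeR adjusted p = 0.00060). Gbp3, an interferon-induced guanylate-binding protein, was at 1.94, 2.38, 2.43 and 2.86 CPM and then 2.00, 2.49, 2.66 and 1.72 CPM. It was level and overlapping, and its difference from the others, 6 of which rose, was -1.94 ± 0.46. Gbp7 fell from 12.5, 10.6, 8.60 and 13.3 CPM to 6.97, 7.24, 4.03 and 3.06 CPM without overlap (log2 -1.08 ± 0.34 SE, edgeR adjusted p = 0.012), with a difference of -1.46 ± 0.38. It was not particular to clone M: Gbp7 also fell by 1.15 in E and 1.94 in T and rose in H, K and V, and against K, N and T alone the difference was not called (edgeR adjusted p = 0.102).

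Other members of the list did rise in clone M, and they were picked after their values were seen. Ifit1 rose from at most 0.197 CPM to 1.79, 2.26, 4.32 and 3.14 CPM (log2 4.28 ± 0.63 SE, edgeR adjusted p = 7.7e-07), next to a mean of at least 3.76 in the other lines, 1 of which had no read in mono-culture. Isg15, a ubiquitin-like modifier, rose from 0.131 to 0.321 CPM to 0.966 to 2.45 CPM, by 2.84 ± 0.56 on the log2 scale against a mean of 3.35, and the difference of -0.50 ± 0.68 did not pass the test (edgeR adjusted p = 0.67). Irf7, the transcription factor that amplifies the interferon response, was at 1.59, 1.93, 2.17 and 2.67 CPM and then 2.28, 2.88, 4.68 and 2.99 CPM, with overlap and a difference of -1.56 ± 0.48. Against K, N and T alone the difference of Irf7 was -0.62 and was not called (edgeR adjusted p = 0.372). The members that separated clone M were therefore a subset of the list. With only K, N and T as the other lines 4 members were lower and 2 higher, and in the first label run without clone K 6 were lower and 3 higher.

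**Figure D4:**
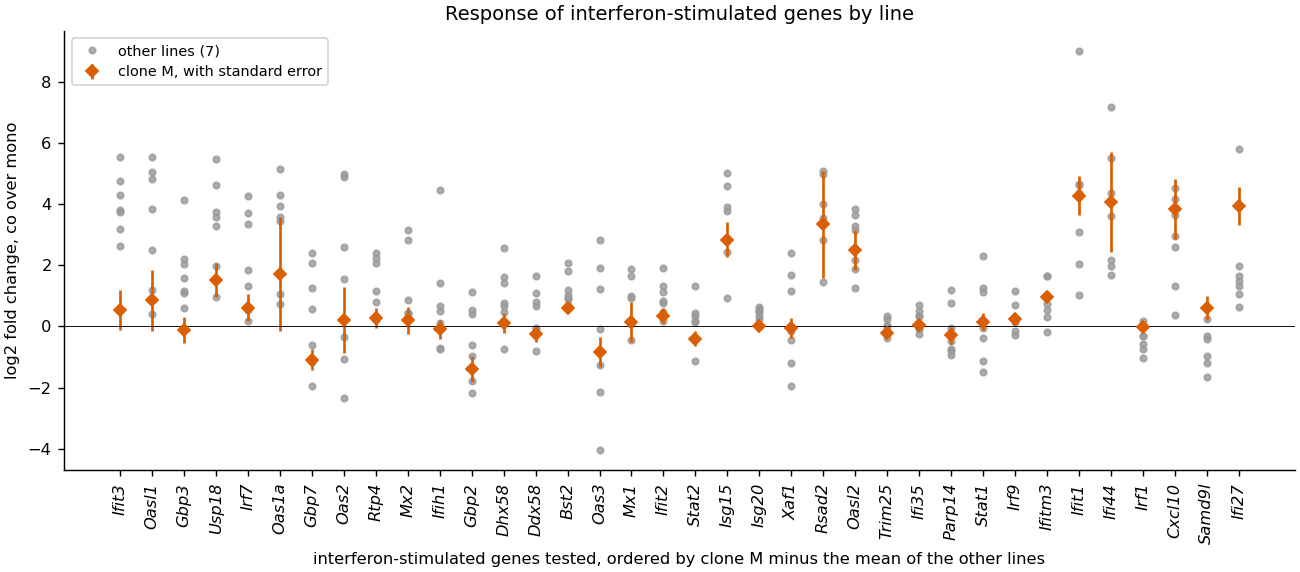
Log2 fold change of co-culture over mono-culture for the 36 interferon-stimulated genes tested, ordered by the difference between clone M and the mean of the others; orange diamonds are clone M with its standard error and grey points are the 7 other lines. Ifit3 and Gbp3 at the left are near 0 in clone M and above it in all other lines, and Ifit1 and Isg15 are up in clone M as in the others.

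Genes of MHC class I presentation, which display peptides to cytotoxic T cells, moved little in clone M. Of 17 tested, 2 rose (11.8%) and 3 fell (17.6%), which is not above the shares of all genes, and the median was -0.243. Against the other lines 6 were lower (35.3%) and 1 higher (5.88%). H2-D1, a classical heavy chain, was at 133, 125, 143 and 112 CPM in mono-culture and at 109, 109, 133 and 128 CPM in co-culture, with overlap. It rose in all 7 other lines by a mean of 0.77, and the difference was -0.87 ± 0.16 (edgeR adjusted p = 8.0e-05). H2-K1, chosen after its values were seen, was at 87.0 to 94.7 CPM and then 64.1 to 88.0 CPM, a change of -0.30 ± 0.18 that did not pass the test (edgeR adjusted p = 0.20) but did with replicate number as a block (edgeR adjusted p = 0.0731). Tap1, a subunit of the peptide transporter, and Psmb8, an immunoproteasome subunit, were under 5 CPM in every library of clone M, with a difference of -3.04 ± 0.53 for Tap1 and, since 3 other lines had no read of Psmb8 in mono-culture, of -2.67 for Psmb8 with those lines at the floor of 3 counts.

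Among 23 chemokines and cytokines, 8 rose (34.8%) and 4 fell (17.4%) in clone M, and 6 were lower (26.1%) and 2 higher (8.7%) than in the other lines. Cxcl12, the ligand of CXCR4, was at 109 to 186 CPM in mono-culture and at 52 to 132 CPM in co-culture, a change of -0.59 ± 0.32 with overlap (edgeR adjusted p = 0.16, and 0.00175 with replicate number as a block). Only 3 of the other lines were called up, among them E, which had no read in mono-culture and 8.99 CPM in co-culture, so the difference, -3.01 with E at the floor of 3 counts, rested on part of the lines. Cxcl1, a neutrophil chemokine, was at 4.11 to 10.5 CPM and then 4 to 8.81 CPM with a difference of -1.58 ± 0.50, whereas 5 other lines rose. Of 23 NF-kB targets, 5 rose (21.7%) and 3 fell (13%), about the shares of all genes, and 5 were lower (21.7%) and 1 higher (4.35%) than in the others. Nfkbia, the inhibitor that NF-kB itself induces, fell from 60.4 to 69.4 CPM to 37.5 to 47.4 CPM, and Bcl3, a nuclear cofactor of NF-kB, rose from 13.7 to 21.5 CPM to 23.2 to 30.7 CPM, both without overlap. Bcl3 also rose in K, by 0.95 on the log2 scale against 0.69 in clone M, and fell in E, N, T and V.

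The integrated stress response was split by member. Of 40 genes tested, 17 rose (42.5%) and 5 fell (12.5%) in clone M with a median of 0.385, within the range of 0.246 to 1.74 in the other lines. Against their mean, however, 15 members were lower (37.5%) and 1 higher (2.5%). Leaving mono-culture replicate 3 out gave 10 lower and 1 higher, and comparing with K, N and T alone gave 6 lower and 1 higher.

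Asns, Psph and Shmt2, enzymes of amino acid synthesis and one-carbon metabolism, rose in clone M, and none of the 3 differed from the mean of the other lines by the test. Asns, asparagine synthetase, went from 39.3, 26.6, 44.8 and 17.6 CPM to 69.2, 76.5, 102 and 97.0 CPM without overlap (log2 1.43 ± 0.28 SE, edgeR adjusted p = 9.3e-05). The mean of the other lines was 1.29, with clone K alone not called (log2 0.60, edgeR adjusted p = 0.14), and the difference of 0.14 ± 0.29 did not pass the test (edgeR adjusted p = 0.81). In mono-culture the mean Asns level of clone M was below those of all other lines, which held 49.8 to 469 CPM. Psph, of serine synthesis, rose from 11.4 to 20.8 CPM to 21.7 to 34.1 CPM (log2 0.83 ± 0.22 SE), and Shmt2, of mitochondrial one-carbon metabolism, rose from 65.7 to 108 CPM to 137 to 193 CPM (log2 0.90 ± 0.21 SE), and neither difference passed the test (edgeR adjusted p = 0.56 and 0.87).

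The regulators moved less. Atf4 was at 183, 170, 314 and 207 CPM in mono-culture and at 220, 232, 328 and 313 CPM in co-culture, where the high mono-culture value is that of replicate 3. Its change of 0.32 ± 0.17 did not pass the test (edgeR adjusted p = 0.15), but it did without that library (log2 0.56, edgeR adjusted p = 0.0127) and with replicate number as a block (edgeR adjusted p = 0.0238). Eif2ak4 was at 50.6 to 56.3 CPM and then 46.3 to 51.1 CPM, a change of -0.12 ± 0.10 with overlap. Myc, a transcription factor that drives biosynthetic genes, rose from 146 to 216 CPM to 211 to 352 CPM (log2 0.70 ± 0.18 SE, edgeR adjusted p = 0.0019), with a slight overlap and a mean of 0.86 in the other lines.

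Other members of the list responded less in clone M than in the other lines. Slc1a5, the neutral amino acid transporter ASCT2, was at 54.7, 51.5, 60.2 and 48.4 CPM in mono-culture and at 38.7, 36, 49.1 and 44 CPM in co-culture, with overlap, and its change of -0.36 ± 0.17 missed the threshold (edgeR adjusted p = 0.11, and 0.0661 with replicate number as a block). All 7 other lines rose, by 0.48 to 1.81, and the difference was -1.33 ± 0.19 (edgeR adjusted p = 7.0e-07). Vldlr, a lipoprotein receptor, fell from 139, 127, 110 and 175 CPM to 56.6, 55, 63.5 and 65.5 CPM without overlap, with a difference of -1.82 ± 0.24. Aldh1l2, the mitochondrial folate dehydrogenase, was at 43.5 to 68.0 CPM and then 30.8 to 46 CPM with overlap, and its difference was -1.90 ± 0.27. Ddit3, which encodes the stress factor CHOP and was picked with its values in view, was at 29.6, 30.7, 41.2 and 37.7 CPM and then 22, 20.4, 29.5 and 36.7 CPM, while 5 other lines rose, a difference of -1.94 ± 0.33. Gdf15, a stress-induced cytokine, did not exceed 2.23 CPM in clone M and rose in all 7 other lines.

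The unfolded protein response, which expands the folding capacity of the endoplasmic reticulum, showed 7 members up and 3 down of 22 in clone M, with 8 lower and none higher than in the other lines, or 2 lower and 1 higher against K, N and T alone. Hspa5, the chaperone BiP, chosen after its values were seen, was at 466 to 604 CPM and then 497 to 823 CPM with overlap. It rose in 5 other lines by a mean of 1.07 over all 7, and the difference was -0.84 ± 0.25. Sel1l, an adaptor of endoplasmic reticulum-associated degradation, fell from 130 to 166 CPM to 103 to 119 CPM, with a difference of -0.76 ± 0.15. Herpud1, of the same pathway, was at 26 to 29.1 CPM and then 19.2 to 28.7 CPM, and its call as lower (edgeR adjusted p = 0.082) was lost in 9 of the other settings.

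The median response of the Wnt pathway was higher in clone M than in any other line. Of 28 genes tested 12 rose (42.9%) and 6 fell (21.4%) in clone M, and the median was 0.445 against -1.15 to -0.000318 in the other lines. 9 members were higher (32.1%) and 3 lower (10.7%) than in the others, or 3 higher and 2 lower against K, N and T alone. Beside the ligand Wnt7b and the receptor Lgr5, the feedback inhibitor Axin2, a standard target of beta-catenin, rose from 0.706, 0.707, 0.525 and 0.851 CPM to 1.93, 2.57, 2.23 and 1.72 CPM. The cultures did not overlap (log2 1.58 ± 0.46 SE, edgeR adjusted p = 0.0065), the mean of the others was -0.84, and the difference was 2.42 ± 0.50. That mean combined called falls in H, V and KPC1 with uncalled changes of 0.90 in K and 0.85 in E. Against K, N and T alone the difference of Axin2 was 1.535 and was not called (edgeR adjusted p = 0.103). Wnt4, chosen after its values were seen, fell from 176 to 221 CPM to 27 to 69.0 CPM in clone M and fell in all 7 other lines too, by a mean of 3.65 on the log2 scale against 2.05 in clone M. The list also holds secreted inhibitors that fibroblasts express, such as Sfrp2 and Dkk2, and the part of the fibroblast-defining transcripts in its count was not tested.

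In the MAPK list, whose members report signalling through ERK, 4 of 18 rose (22.2%) and 1 fell (5.56%), and 7 were higher (38.9%) and 1 lower (5.56%) than in the other lines. The ETS factors Etv4 and Etv5 led the difference. Etv4 rose from 41.6, 33.7, 53 and 24.6 CPM to 76.7, 76.1, 108 and 80.4 CPM without overlap (log2 1.16 ± 0.17 SE, edgeR adjusted p = 8.0e-07), with a difference of 1.11 ± 0.18. Etv5 rose from 43 to 56.7 CPM to 69.5 to 89.4 CPM, also without overlap, with a difference of 0.74 ± 0.16. Neither rise was particular to clone M. Etv5 rose by 0.72 on the log2 scale in clone M, 0.69 in E and 0.61 in K, and it fell in H, V and KPC1. Etv4 also rose in E and K, by 0.61 and 0.45, and fell in H. Against K, N and T alone 3 members of the list were higher and 1 lower. Ccnd1, cyclin D1, chosen after its values were seen, rose from 249 to 473 CPM to 601 to 1039 CPM. Errfi1, a feedback inhibitor of EGF receptors, rose from 78.9 to 126 CPM to 151 to 265 CPM, and 2 of the 14 EGF family genes were higher and 1 lower than in the others.

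TGF-beta genes were balanced in clone M, with 7 up and 9 down of 25, but the medians of the 7 other lines were all below 0 (-0.663 to -0.108) against 0.0962 in clone M, and 8 members were higher and 1 lower. The receptor Tgfbr2 rose from 181, 203, 232 and 183 CPM to 323, 353, 359 and 335 CPM without overlap (log2 0.78 ± 0.15 SE, edgeR adjusted p = 5.1e-05), while 4 other lines fell, and the difference was 1.22 ± 0.16. Bmp1, a protease that processes procollagen, rose from 105 to 111 CPM to 157 to 196 CPM. It also rose in T, by 0.66 on the log2 scale against 0.69 in clone M, and fell in V. Pmepa1, a feedback inhibitor of the pathway, rose from 59.9 to 85.3 CPM to 94.7 to 146 CPM, with a difference of 1.18 ± 0.24. The ligand Tgfb2 fell from 14.5 to 30 CPM to 7.24 to 13.5 CPM while 5 other lines rose, and the BMP target Id1, chosen after its values were seen, fell from 161 to 239 CPM to 43.8 to 65.5 CPM as in all other lines.

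Smaller signalling lists were mixed. Of 19 YAP and TAZ targets 7 rose (36.8%) and 5 fell (26.3%), with 5 higher (26.3%) and 3 lower (15.8%) than in the others. Ctgf, a matricellular target, rose from 54, 75.1, 111 and 79.2 CPM to 123, 174, 241 and 266 CPM without overlap (log2 1.34 ± 0.34 SE), and the kinase gene Nuak2 rose from 12.4 to 17.8 CPM to 22.2 to 28.1 CPM. Of 14 Notch genes 5 rose (35.7%) and 3 fell (21.4%), and the target Nrarp rose from 14.9 to 27.6 CPM to 37.4 to 64 CPM. Of 26 immediate-early genes 4 rose and 6 fell. The Krüppel-like factors Klf4 and Klf2 fell: Klf4 went from 52.8 to 126 CPM to 25.7 to 45.7 CPM, and Klf2 from 31.9 to 94.8 CPM to 9.96 to 27.7 CPM, without overlap in either.

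Matrix genes gave the largest changes of all, together with the fibroblast-defining transcripts. All 20 collagens tested rose in clone M, with a median of 2.49 against 0.393 to 2.85 in the other lines, and 9 were higher than in the others and none lower. Against K, N and T alone the count was 0 in both directions. Of 22 fibroblast markers 18 rose and 1 fell. Col1a1, the main chain of fibrillar collagen, went from 3.18, 2.25, 1.58 and 3.59 CPM to 142, 210, 487 and 230 CPM, the order of the fibroblast-defining sum over the replicates. Its response was 6.64 ± 0.54 on the log2 scale and its difference 2.22 ± 0.52 (edgeR adjusted p = 0.0015); with K, N and T alone the difference was 1.21 (edgeR adjusted p = 0.207).

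The genes with the largest rises belonged to the same group. Postn, which encodes the matricellular protein periostin, had no read in the mono-cultures and 21.2, 38.5, 83.0 and 65.5 CPM in co-culture, at least 1110-fold more against the floor of 3 counts. Col1a2 went from 2 reads in the 4 mono-cultures to 86.3, 144, 326 and 159 CPM. Dcn, the proteoglycan decorin, and Nid2, a basement membrane protein, had no read in mono-culture and were at least 225-fold and 318-fold higher. Each of these rose in all 7 other lines, and for Postn, Dcn and Nid2 the difference between lines could not be estimated because mono-cultures of other lines were at or near 0 as well.

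Some matrix-related genes were present in clone M before co-culture. Pdgfrb, the receptor of PDGF-B and a mesenchymal marker, was at 5.71, 5.72, 1.97 and 3.34 CPM in mono-culture and at 23.7, 34.2, 68.6 and 36.6 CPM in co-culture (log2 3.28 ± 0.37 SE), with a difference of 1.96 ± 0.38. The co-cultures of Pdgfrb were in the replicate order of the fibroblast-defining transcripts, whose part in this rise was not tested. Of 25 matrix proteases and inhibitors 12 rose and 1 fell, the median of 0.717 lay above the 0.0673 to 0.416 of the other lines, and 7 were higher and none lower than in the others. Mmp15, a membrane-type metalloprotease, rose from 10.4 to 12.8 CPM to 14.1 to 25.9 CPM, highest in replicate 1, where the fibroblast-defining transcripts were lowest, and 4 other lines fell. Of 19 genes of epithelial-mesenchymal transition 13 rose and 1 fell, and of 20 integrins and laminins 5 rose and 4 fell. Of 16 ductal genes 4 rose and 5 fell. Spp1, osteopontin, rose from 469, 514, 729 and 265 CPM to 1332, 1750, 3248 and 2403 CPM, with a difference of 1.56 ± 0.29. Its co-cultures were also in the replicate order of the fibroblast-defining transcripts. Krt18, the partner of Krt8, rose from 861 to 1137 CPM to 1177 to 1514 CPM.

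**Figure D5:**
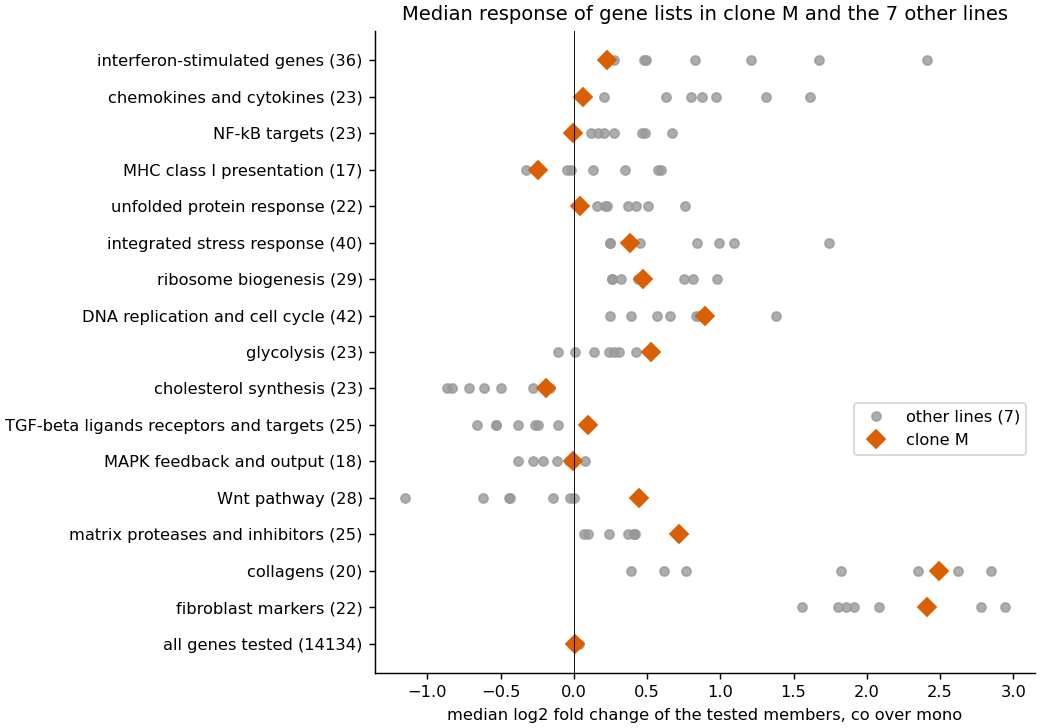
Median log2 fold change, co-culture over mono-culture, of the tested members of 16 gene lists and of all genes tested, with clone M as orange diamonds and the 7 other lines as grey points; the number of members is in brackets. Clone M lies above the other lines for the Wnt pathway, TGF-beta genes, glycolysis and matrix proteases, and below them for interferon-stimulated genes, chemokines, NF-kB targets and the unfolded protein response.

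Growth genes rose. Of 42 genes of DNA replication and the cell cycle 37 rose and none fell in clone M, with a median of 0.892 within the 0.249 to 1.38 of the other lines, and 7 were higher than in the others. E2f8, an E2F repressor made in S phase, rose from 2.06, 1.48, 4.01 and 1.58 CPM to 10.8, 14.5, 21 and 11 CPM without overlap (log2 2.65 ± 0.28 SE, edgeR adjusted p = 1.6e-10). Ccne1, cyclin E1, rose from 0.851 to 2.43 CPM to 7.24 to 9.65 CPM, and the replication helicase cofactor Cdc45 rose from 3.40 to 9.78 CPM to 16.9 to 23 CPM. Cdkn1a, the cyclin-dependent kinase inhibitor p21, rose too, from 1.41, 1.48, 3.74 and 2.25 CPM to 4.07, 5.84, 11.4 and 8.21 CPM, and met the rule of a difference from every line (1.49 ± 0.36); its co-cultures followed the order of the fibroblast-defining transcripts. Without mono-culture replicate 3 the cell cycle list had 40 members up and 12 higher than in the others.

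Ribosome biogenesis genes rose in 22 of 29 cases and fell in none, with 1 higher and 4 lower than in the other lines. Bop1, of 60S subunit assembly, rose from 30.8 to 40.5 CPM to 50.8 to 68.8 CPM, whereas Nop14, of 40S subunit assembly, was at 79.3 to 84.2 CPM and then 77.5 to 89.9 CPM and rose in 6 other lines. Npm1, nucleophosmin, was at 1915 to 2172 CPM and then 1790 to 2007 CPM, a change of -0.10 ± 0.10 that did not pass the test (edgeR adjusted p = 0.46), and its difference of -0.40 ± 0.10 did. Of 17 genes of the Myc network 9 rose and 3 fell.

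In metabolism, 11 of 23 glycolysis genes rose and 1 fell, the median of 0.529 lay above the -0.107 to 0.427 of the other lines, and 5 were higher and 1 lower. Eno1, enolase, rose from 446, 430, 512 and 452 CPM to 665, 615, 604 and 859 CPM without overlap (log2 0.58 ± 0.13 SE, edgeR adjusted p = 0.00059), against a mean of 0.06. Among 24 hypoxia targets 10 rose and 1 fell, the fall being Ndrg1, from 183 to 313 CPM to 95.4 to 163 CPM, with a difference of -1.44 ± 0.27.

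None of 23 cholesterol synthesis genes rose and 5 fell in clone M, with a median of -0.193 against -0.868 to -0.163 in the other lines, and 6 were higher than in the others and none lower. Hmgcs1, the enzyme that supplies HMG-CoA, was at 600, 646, 744 and 566 CPM in mono-culture and at 664, 629, 519 and 592 CPM in co-culture, with overlap and a change of -0.09 ± 0.20, while 4 other lines fell. Its difference was 0.74 ± 0.22 (edgeR adjusted p = 0.010). Mvk, mevalonate kinase, was at 64.2 to 87.3 CPM and then 49.4 to 64.8 CPM, a change of -0.40 ± 0.24 (edgeR adjusted p = 0.21, and 0.0905 with replicate number as a block) against a mean of -1.20. With K, N and T alone no cholesterol gene differed. In fatty acid synthesis 4 of 15 genes fell and none rose.

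Of 11 genes encoded by mitochondrial DNA 7 fell, none rose, and none differed from the other lines. mt-Nd2, a complex I subunit, fell from 5275, 5870, 4906 and 5781 CPM to 3237, 3502, 3002 and 3383 CPM (log2 -0.73 ± 0.23 SE, edgeR adjusted p = 0.012). mt-Co1, of complex IV, fell by 0.50 on the log2 scale with an adjusted p of 0.060, a call lost when any of 4 single libraries was left out. Of 37 nuclear respiratory chain genes 7 rose and none fell.

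Genes with the largest falls at 10 CPM or more were Tnxb, Tnr, Plin4, Ugt2b34, C4bp and Hr among others. Tnxb, the matrix protein tenascin-X, went from 93.6, 85.9, 84.1 and 141 CPM to 12, 10.1, 4.39 and 2.91 CPM, a 13.7-fold fall without overlap (log2 -3.78 ± 0.40 SE, edgeR adjusted p = 1.6e-10). The other mono-cultures held 0.333 to 18.7 CPM, 6 other lines fell, and the difference of -1.24 ± 0.44 was called (edgeR adjusted p = 0.039) but lost in 8 of the other settings. Tnr, tenascin-R, fell from 54.2, 37.8, 33.4 and 70.6 CPM to 11.8, 8.02, 3.82 and 5.52 CPM. Plin4, a lipid droplet coat protein, fell from 15.8 to 41.6 CPM to 2.81 to 6.28 CPM. Ugt2b34, a glucuronosyltransferase, and C4bp, a complement regulator, fell from at least 8.01 and 5.19 CPM to at most 1.45 and 1.24 CPM, and Hr, a histone demethylase gene, fell from 12.7 to 22.8 CPM to 2.66 to 3.59 CPM, as in all 7 other lines.

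The other lists were near the background or mixed: over the axon guidance, lysosome, p53, Nrf2, heat shock and amino acid transporter lists 3.45% to 35.3% rose and 11.8% to 28.2% fell. Of 39 axon guidance genes 9 rose and 11 fell in clone M, with 9 higher and 8 lower than in the others. The guidance ligand Slit2, called down at an edgeR adjusted p of 0.0089, was at 80.2, 65.0, 44.3 and 117 CPM and then 45.9, 52.1, 42.3 and 37.9 CPM, with overlap, while 6 other lines rose. Nrp2, of the same list, fell from 366 to 494 CPM to 225 to 323 CPM, and the membrane-anchored semaphorin Sema7a fell from 9.71 to 14.9 CPM to 3.04 to 4.18 CPM, both without overlap. Of 29 lysosome genes 1 rose and 7 fell, with 8 lower and 3 higher than in the others. The riser was Ctsc, cathepsin C, from 6.32 to 14.8 CPM to 23.3 to 45.6 CPM. Ctsc rose by 1.46 on the log2 scale in clone M, 1.38 in E and 1.53 in K. It also rose less steeply in N and T and fell in H. Of 20 p53 targets 6 rose and 3 fell, including the pro-apoptotic Bbc3, from 8.29 to 9.42 CPM to 4.4 to 6.91 CPM where 4 other lines rose, and Phlda3, which rose by 0.45 ± 0.13 while 6 other lines fell. Of 30 Nrf2 targets 6 rose and 7 fell, of 17 heat shock genes 6 rose and 2 fell, and of 19 amino acid transporters 5 rose and 4 fell. Of the markers of other cells, 2 of 10 macrophage and leukocyte genes and 3 of 7 endothelial genes were expressed enough to be tested, with 1 endothelial gene called, and none of 8 acinar genes was.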

How the data were processed

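The authors deposited raw read counts per gene for 64 libraries, made with featureCounts on mm10 per the submitters' processing notes; the aligner and the strand setting of the counting are not given in the sources used here, so overlapping and antisense genes may share reads. Polyadenylated RNA (200 ng) had been made into strand-specific libraries with 14 cycles of amplification and read as pairs of 76 bases. A deposited table of normalized values was not used. Counts of 39017 genes were read, and 37607 (96.4%) of their identifiers were found in the GENCODE M21 annotation of GRCm38, the source of gene positions.

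In edgeR 4.0.16 (R 4.3.3) 14134 genes passed filterByExpr, library sizes were scaled by TMM, and 1 quasi-likelihood model was fitted with 16 group means over all 64 libraries. Contrasts were co-culture minus mono-culture in clone M, the same minus the mean of the 7 other lines, and 7 pairwise differences. P-values are two-sided and were Benjamini-Hochberg adjusted over all genes tested, called under 0.1; log2 fold changes are those of the fit, and the standard error is the change divided by the square root of the F statistic. The test was also run on counts simulated from the mono-culture means and the spread of the main fit. Same-numbered replicates of clone M deviated together, with correlations of 0.17, 0.23, 0.27 and 0.14 over genes, so their numbers pair the samples at the minimum of 0.1 used here; the labels do not say what a number marks, and a fit with replicate number as a block is given where it changes a call. Alternatives were RLE scaling, other filters, DESeq2 1.42.0, a stricter threshold, the block, the label run, fewer lines and leaving out libraries. Those that leave out replicate 3 of both cultures, or keep only the first label run without clone K, were chosen after seeing the data.

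Named genes had a mean of at least 10 CPM in the higher culture, no overlap between cultures and a call. From these were taken up to 10 in each direction by change and by distance from the nearest line, 5 by difference from the mean and 4 called opposite to at least 5 lines; up to 3 members of each of the 37 lists (876 entries) were added by the smallest p of the difference, with 6 genes that the study names, and not all of these are printed. Members and lists were chosen with earlier results of these data known. Genes and samples are described with no set test. A further allele of the model is not reported here.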

Additional observations from a re-analysis of the deposited data

Results flagged for a closer look

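In 236 groups of 4 libraries, 19 held a highest or lowest library far from the other 3 by Dixon's 95% limit, which chance alone gives in about 1 of 20 groups. Of these, 8 were high values in mono-culture replicate 3: the summed ribosomal and noncoding transcripts at 37200 CPM (1350 to 1540 in the other 3), Gm26924 at 28500, mt-Rnr1 at 2100, Gm23935 at 1340, Gm26917 at 1060, Lars2 at 597, Rn7sk at 69 and Etv5 at 56.7 CPM. Co-culture replicate 3 was low for Gm26924 at 164, Gm23935 at 55.1 and Cbx7 at 10 CPM and high for Etv4 at 108 and Nrarp at 64 CPM. Mono-culture replicate 4 was high for Tnxb at 141, Mndal at 111, Sema7a at 14.9 and Psmb8 at 1.64 CPM. Co-culture replicate 4 was high for Cxcl1 at 8.81 CPM, and co-culture replicate 1 was low for Colec12 at 45.6 CPM.

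The response of clone M differed from the mean of the other lines, by the test of the difference itself (edgeR, adjusted p under 0.1), for the named genes that also differed from each line singly. On the log2 scale clone M was higher for Lgr5 by 5.92, Wnt7b by 3.70, Prss22 by 2.90, Sorbs3 by 1.89, Fn1 by 1.82, Gpr56 by 1.55, Cdkn1a by 1.49, Pdlim2 by 1.48, Ier5l by 1.40 and Tpgs2 by 1.32. It was lower for Ppargc1b (-3.85), Cdh17 (-2.18), Man1a (-2.02), Mndal (-1.57), Dut (-1.42), Eda (-1.40), Deptor (-1.39), Cbx7 (-1.15) and Glud1 (-1.09). The fitted differences of Kctd17 (7.93) and Smad9 (-5.89) rest on mono-cultures without a read, in clone M for Kctd17 and in 6 other lines for Smad9, and are no bounds; with those groups at the floor of 3 counts they were 5.39 and -3.66. The differences of Gm26924 (-5.40), Rn7sk (-4.50), Gm26917 (-4.01), Gm23935 (-2.86), mt-Rnr1 (-2.27) and Lars2 (-1.61) lost their calls without mono-culture replicate 3.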

How the results depend on the processing

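The count of genes called in clone M was within 1.5 times its value of 5495 under every alternative run. Leaving out single libraries gave 4260 (without mono-culture replicate 4) to 5548, and DESeq2 gave 5554. The count that differed from the mean of the other lines was 3714, was 2931 to 3465 with single libraries left out, and was 1545 with K, N and T alone as other lines. Differences that lost their calls with K, N and T alone included those of Axin2, Ctgf, Nuak2, Klf2, E2f8, Errfi1, Ccnd1, Irf7, Hspa5, Nfkbia, Npm1 and Gdf15. Genes differing from every line numbered 29 and genes changing in clone M alone 14 at an adjusted p under 0.05. Leaving out libraries of clone M gave 28 to 50 and 9 to 23, where the lowest of each is without replicate 3 of both cultures. Leaving out 1 other line at a time gave 44 to 70 and 20 to 40, with 70 and 40 without K and 59 and 30 without T; the first label run without K gave 52 and 32. Of 4508 values of named genes under the alternatives 4375 kept their direction and side of the threshold, 92 lost and 21 gained the call, and 20 changed sign.

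With replicate number as a block 6206, 4518, 60 and 21 genes were called in the response, the difference, against every line and in clone M alone. The block ended the calls of Gm26924, Gm26917, Gm23935 and Lars2, and it added the difference of Id1 (edgeR adjusted p = 0.067) to the calls named beside their genes; it changed no other call of a named gene.

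The sign changes came with libraries left out, and none of the reversed values was called. The responses ranged from -5.496 to 0.3199 for Gm26924, -4.271 to 0.2418 for Gm26917, -2.828 to 0.5967 for Gm23935, -1.705 to 0.3033 for Lars2, -0.4649 to 0.9488 for Ifit3, -0.6068 to 0.1269 for Tap1 and -0.1488 to 0.06783 for Hmgcs1. The differences from the other lines ranged from -5.804 to 0.02293 for Gm26924, -4.406 to 0.1066 for Gm26917, -3.24 to 0.1963 for Gm23935 and -1.923 to 0.09775 for Lars2. Leaving out mono-culture replicate 3 changed the sign of the responses of Gm26924, Gm26917, Gm23935, Lars2 and Hmgcs1 and of the differences of Gm26917, Gm23935 and Lars2. The difference of Gm26924 changed sign without replicate 3 of both cultures, the response of Ifit3 without co-culture replicate 3 and that of Tap1 without mono-culture replicate 4; the cause was not tested. Genes of a few reads, such as Lgr5, Tap1 and Psmb8, are limited by depth.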
